A study of Homo sapiens with 12 samples.

Results

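The vacuolar ATPase, its accessory subunits, the Ragulator complex and the Rag GTPases were followed through a pooled CRISPR/Cas9 knockout screen as 34 genes of the 20915 gene names in the count table. The genes were chosen by name: those that begin with ATP6V0 or ATP6V1, ATP6AP1 and ATP6AP2, LAMTOR1 to LAMTOR5, RRAGA to RRAGD, and TCIRG1. The choice went by gene name alone, but it was made with earlier results of these data known. Each gene had 6 single-guide RNAs (sgRNAs), so that 204 of the 123411 sgRNA entries belonged to the set. It held 10 V0 subunit genes, 13 V1 subunit genes, 2 accessory subunit genes, 5 Ragulator genes and 4 Rag genes.

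The vacuolar ATPase is a rotary proton pump that acidifies lysosomes, endosomes and the Golgi apparatus. Its V1 sector hydrolyses ATP in the cytosol, and its V0 sector carries protons through the membrane by way of a ring of proteolipid subunits. On the lysosome the pump contacts Ragulator, a scaffold that anchors the Rag GTPases to the membrane, and the Rags recruit the growth-regulating kinase complex mTORC1 when amino acids are plentiful. Many pump subunits have several isoforms. The 14 genes called ubiquitous here encode subunits found in most tissues. The 9 called restricted encode isoforms known from particular tissues, such as kidney, osteoclasts, testis or brain. ATP6V0B, ATP6V0C, ATP6V1A, ATP6V1D, ATP6V1F and ATP6V1H have no restricted counterpart in the set, so the lists do not compare isoforms alone.

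The screen was run in a pair of established HER2-amplified cell lines, N87 from a gastric carcinoma and OE19 from an adenocarcinoma of the oesophagogastric junction. All cells carried the GeCKO V2 lentiviral library, which delivers Cas9 and 1 sgRNA together, after infection at a multiplicity of 0.3. Baseline cells were collected after 7 days of puromycin, at 0.75 µg/mL for N87 and 1.5 µg/mL for OE19. The vehicle and lapatinib cells had the same selection and were then kept for 14 days in DMSO or in lapatinib, which blocks the kinases HER2 and EGFR, at 0.5 µM for N87 and 1 µM for OE19. Each of these 6 conditions had 2 libraries, from separate infections.

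The readout was the abundance of integrated sgRNAs in genomic DNA, so no RNA or protein level was measured, and no cell type marker could be checked. A falling count means that cells with that sgRNA became a smaller part of the pool. Because every count is relative to the rest of the pool, slower growth and loss of cells cannot be told apart. The libraries held 13105805 to 33743599 counts, and the middle count over all sgRNAs was lowest, 57, in an OE19 lapatinib library and highest, 238, in an N87 baseline library. At baseline no member sgRNA of either line had fewer than 10 counts. With lapatinib 39 and 24 of the 204 did in N87, and 24 and 8 in OE19. In N87 that was 19.1% and 11.8%, against 11.2% and 5.11% of all sgRNAs with a gene target. In OE19 it was 11.8% and 3.92%, against 6.87% and 2.21%. The N87 counts held 23 and 18 of the 84 sgRNAs against ubiquitous subunits and 4 and 0 of the 54 against restricted ones. Normalized counts below were scaled between libraries by the median of ratios, and intervals for counting error were not used, since reads without molecular identifiers are not independent molecules.

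The sequences of the sgRNAs were not used here, and the position at which each sgRNA cuts its gene is not given in the sources used here.

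The first question was which parts of the pump and its partners N87 and OE19 cells needed over 14 days without drug. In N87, sgRNAs against 6 of the 34 genes fell: the proteolipid gene ATP6V0C, the V0 stalk gene ATP6V0D1, the 2 genes of the ATP-hydrolysing head ATP6V1A and ATP6V1B2, the regulatory V1 subunit gene ATP6V1H, and the accessory gene ATP6AP1. All 5 pump subunits among them are on the ubiquitous list. None of the 9 restricted isoforms, 5 Ragulator genes or 4 Rag genes passed the test in N87. In OE19, sgRNAs against ATP6V0C and ATP6AP1 fell. Genes were called by edgeR's quasi-likelihood test per sgRNA, followed by robust rank aggregation over the sgRNAs of a gene and Benjamini-Hochberg adjustment over all genes, with a threshold of 0.05. By that rule 2.34% of 20894 genes fell in N87 and 1.53% in OE19.

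ATP6V0C, at chr16:2563953-2570219 on the plus strand (GRCh37), encodes the c subunit of the proton-carrying ring. Its median normalized count over 6 sgRNAs was 86.4 and 68.4 in the N87 baseline libraries and 56.4 and 25.03 in the vehicle libraries. In OE19 it was 100.5 and 121 at baseline and 38.7 and 35.7 with vehicle. The groups did not overlap in either line, and each of the 6 sgRNAs had both vehicle libraries below both baseline libraries in N87 and again in OE19. The median log2 fold change over sgRNAs was -1.02 ± 0.42 (SD over 6 sgRNAs) in N87, with an adjusted p of 3.1e-05. The N87 call was lost by edgeR on summed counts of the 6 sgRNAs (adjusted p 0.059) and by limma on gene means (adjusted p 0.101). In OE19 it was -1.39 ± 0.73, with an adjusted p of 1.9e-05.

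ATP6V1H, at chr8:54628103-54756118 on the minus strand, encodes the H subunit, which regulates ATP hydrolysis. Its N87 baseline libraries stood at 181 and 163 and its vehicle libraries at 97.7 and 50.1. The fall was -1.06 ± 0.34 on the log2 scale, with an adjusted p of 0.00082, and 5 of its 6 sgRNAs had both vehicle libraries below baseline. In OE19 the same sgRNAs went from 193.7 and 198.5 to 128 and 114, without overlap, but their changes were more scattered. The OE19 median change was -0.72 ± 0.76, and its adjusted p of 0.13 missed the threshold.

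The 2 head subunits A and B alternate around the catalytic ring of V1, with A carrying the catalytic sites. ATP6V1A (chr3:113465617-113530903, plus strand) stood at 120 and 150 in the N87 baseline libraries and at 83.4 and 82.2 with vehicle. ATP6V1B2 (chr8:20054892-20084330, plus strand) stood at 234 and 249 at baseline and at 158 and 83.8 with vehicle. Both had non-overlapping groups in N87. The median changes were alike, -0.52 ± 0.63 for ATP6V1A with an adjusted p of 0.027 and -0.52 ± 0.38 for ATP6V1B2 with an adjusted p of 0.0013. The ATP6V1A call was lost by edgeR on summed counts, at an adjusted p of 0.065. In OE19 the head genes parted. ATP6V1A had 114 and 119 at baseline against 115 and 124 with vehicle, overlapping groups with a median change of -0.01 ± 0.84. ATP6V1B2 went from 277 and 283 to 151 and 171, with a median change of -0.45 ± 0.45 that missed the threshold at an adjusted p of 0.38.

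ATP6V0D1, at chr16:67471917-67515084 on the minus strand, encodes the d subunit that joins the membrane ring to the central stalk. Its medians in N87 were 138 and 107.5 at baseline against 94.99 and 50.5 with vehicle, and all 6 sgRNAs had both vehicle libraries below baseline. The median change was -0.74 ± 0.69, with an adjusted p of 0.0011. By edgeR on summed counts the ATP6V0D1 call was lost, at an adjusted p of 0.079. In OE19 it went from 128 and 149 to 104 and 94.8, also without overlap, and 5 of 6 sgRNAs did so. Its OE19 change of -0.58 ± 0.65 had an adjusted p of 0.13.

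ATP6AP1, at chrX:153656979-153664862 on the plus strand, encodes Ac45, an accessory protein of V0 that takes part in assembling and sorting the pump. Its sgRNAs stood at 187 and 155 in the N87 baseline libraries and at 134 and 123.5 with vehicle. In OE19 they stood at 153 and 194 against 105 and 123. Neither pair of groups overlapped. The median change was -0.48 ± 0.58 in N87, with an adjusted p of 0.017, and -0.78 ± 0.69 in OE19, with an adjusted p of 0.0095. The other accessory gene, ATP6AP2, which encodes the prorenin receptor, gave -0.24 in N87 and -0.52 in OE19, with an adjusted p of 0.085 in OE19.

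**Figure D1:**
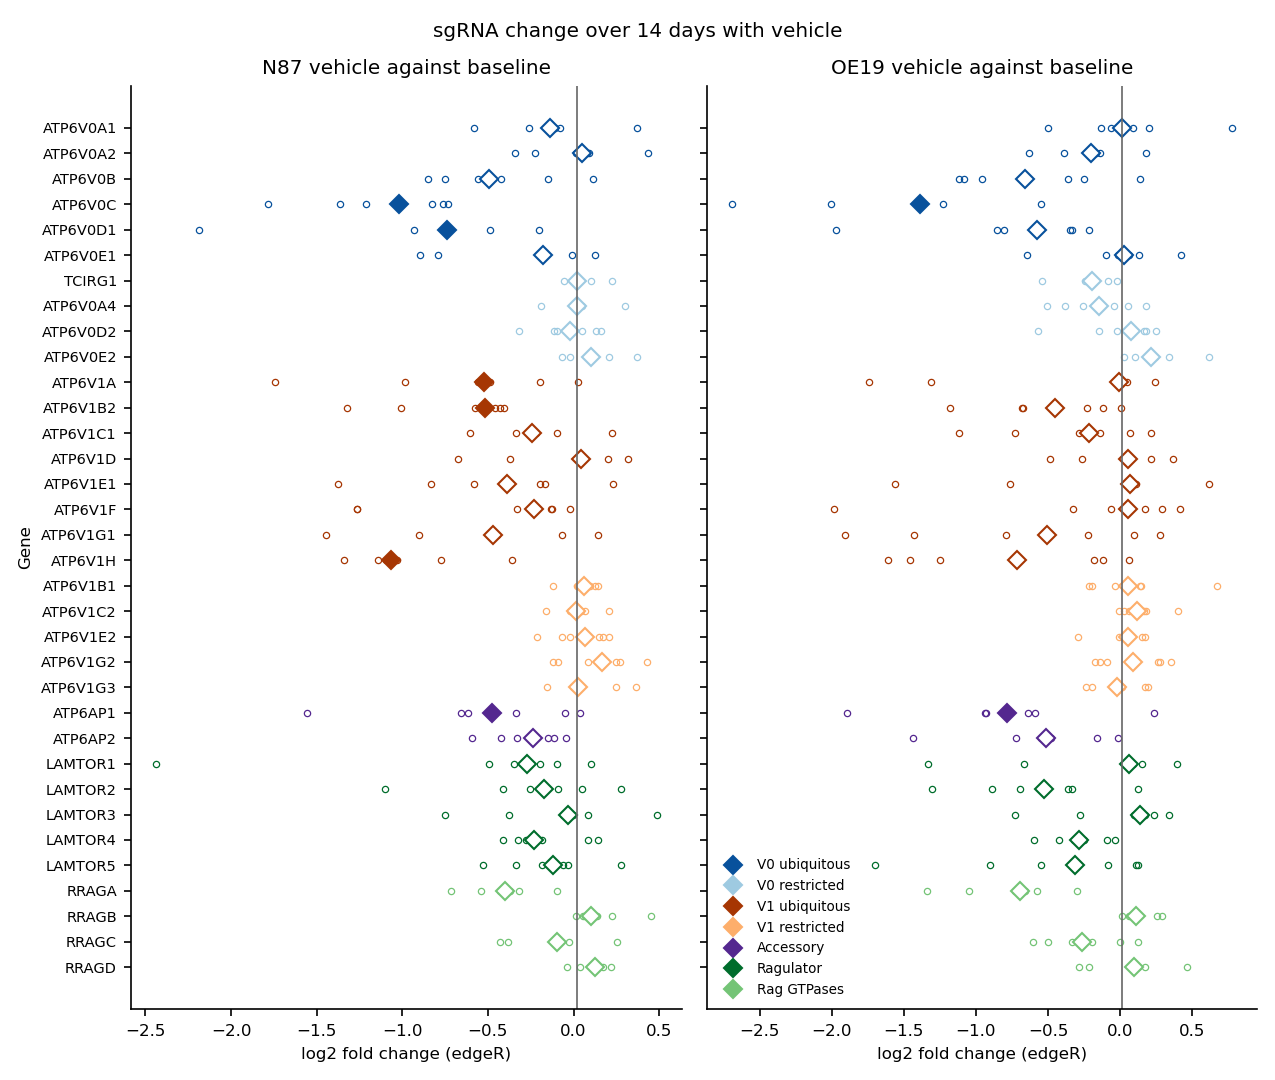
Change of every member over 14 days with vehicle in N87 (left) and OE19 (right). The x axis is edgeR's log2 fold change of vehicle against baseline, open circles are single sgRNAs, diamonds are the medians over the sgRNAs of a gene, and filled diamonds are the genes with an adjusted p under 0.05 for a fall. The grey line is the median of all genes. The 6 filled N87 diamonds lie between -1.06 and -0.48, while the restricted isoforms lie near the grey line.

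Over the 6 ubiquitous V0 genes the median change in N87 was -0.33, over the 8 ubiquitous V1 genes -0.43, and over all genes 0.02. Of these 14 genes, 12 had a median below 0, and 8 were in the lowest 5 percent of all genes. The 9 restricted genes had a median of 0.02, ran from -0.02 to 0.16, and had no gene in the lowest 5 percent. In OE19 the ubiquitous genes gave -0.39 for V0, -0.11 for V1 and -0.21 together, against 0.01 over all genes, and 6 of the 14 were in the lowest 5 percent. The 9 restricted genes there had a median of 0.06, with TCIRG1, the osteoclast a3 isoform, lowest at -0.19.

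By counts of single sgRNAs, the ubiquitous subunits stood above the share over all sgRNAs in both lines of cells. The restricted ones stood far below it in N87 and nearer to it in OE19. In N87, 54 of 84 sgRNAs against ubiquitous subunits had both vehicle libraries below both baseline libraries, or 64.3%. Among sgRNAs against restricted subunits 1 of 54 did, or 1.85%, and among all 121411 sgRNAs with a gene target 18.1%. In OE19 the counts were 41 of 84 for the ubiquitous subunits and 9 of 54 for the restricted ones, or 48.8% and 16.7%, against 22.2% of all. For Ragulator they were 11 of 30 sgRNAs in N87 and 14 of 30 in OE19, and for the Rags 7 of 24 and 8 of 24. The accessory genes had 7 of 12 and 9 of 12. The ubiquitous and restricted groups were compared by these counts alone, with no test of the difference. Both lists were made with earlier results of these data known.

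**Figure D2:**
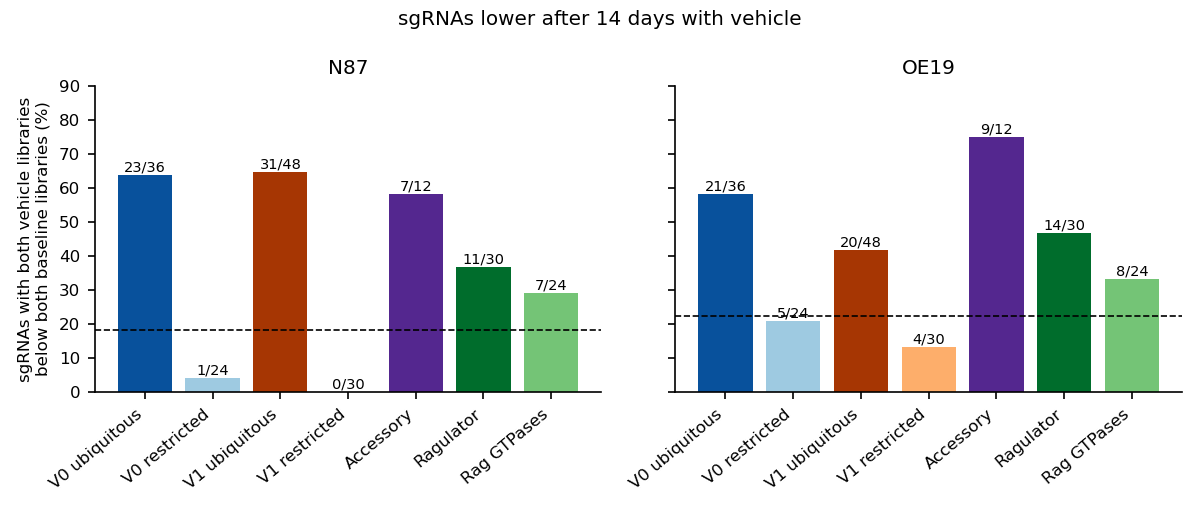
Share of sgRNAs with both vehicle libraries below both baseline libraries, by group of genes, in N87 (left) and OE19 (right). The y axis is percent of the sgRNAs of a group, numbers above bars are those sgRNAs of the total, and the dashed line is the share over all sgRNAs with a gene target, 18.1% in N87 and 22.2% in OE19. The ubiquitous V0 and V1 bars stand above the line in both lines of cells and the restricted bars below it.

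The subunits that did not pass filled out the picture. ATP6V0B, the other proteolipid of the ring, gave -0.49 ± 0.37 in N87 and -0.66 ± 0.52 in OE19, with adjusted p-values of 0.11 and 0.23. Of the outer stalk genes, ATP6V1G1 gave -0.47 and -0.51, ATP6V1C1 -0.24 and -0.21, and ATP6V1E1 -0.39 and 0.07, in N87 and OE19. The central rotor gene ATP6V1D gave 0.04 and 0.05, and its partner ATP6V1F -0.23 and 0.05. For the a subunit, which forms the proton half-channels, ATP6V0A1 gave -0.14 and 0.01 and ATP6V0A2 0.05 and -0.20. The e subunit gene ATP6V0E1 gave -0.18 and 0.02.

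Most of these genes were mixed at the level of sgRNAs. An sgRNA against ATP6V1F fell by 1.99 in OE19 on the log2 scale and passed the sgRNA test while its gene median was 0.05, and ATP6V1A had OE19 sgRNAs from -1.74 to 0.24. The SD over sgRNAs was above the median SD of all genes in all 14 ubiquitous genes in N87 and in 13 of 14 in OE19. For the 9 restricted genes it was so in 1 and in 2.

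Ragulator consists of LAMTOR1, which carries the lipid anchor, and the roadblock-domain pairs LAMTOR2 with LAMTOR3 and LAMTOR4 with LAMTOR5. In N87 all 5 genes had medians below 0, from -0.27 for LAMTOR1 to -0.03 for LAMTOR3, and the lowest adjusted p was 0.355, for LAMTOR1. In OE19 LAMTOR2 was lowest at -0.53 ± 0.50, with 5 of 6 sgRNAs below baseline in both libraries and an adjusted p of 0.17. LAMTOR2 sgRNAs stood at 144 and 162 in the OE19 baseline libraries and at 99.5 and 113 with vehicle, without overlap. LAMTOR3 had the highest OE19 median of the set's Ragulator genes at 0.14.

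The Rags act as pairs of RRAGA or RRAGB with RRAGC or RRAGD. RRAGA (chr9:19049425-19051023, plus strand) was the lowest of the 4 in both lines, with -0.40 ± 0.21 in N87 and -0.70 ± 0.37 in OE19. Its N87 medians were 125 and 110 at baseline and 110 and 93.4 with vehicle, and its OE19 medians were 114 and 114 against 64.9 and 80.6. Of its 6 sgRNAs, 5 had both vehicle libraries below baseline in each line. The adjusted p-values of 0.14 and 0.16 missed the threshold. RRAGB gave 0.10 and 0.11, RRAGC -0.10 and -0.26, and RRAGD 0.12 and 0.10.

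The highest medians were small. In N87 ATP6V1G2, a brain isoform, stood at 181 and 208 at baseline and at 171 and 214 with vehicle, overlapping groups with a median change of 0.16. RRAGD stood at 195 and 215 against 215 and 229 and RRAGB at 229 and 219 against 273 and 208, and the groups overlapped for both. In OE19 ATP6V0E2 gave 0.22, from 167 and 142 to 197 and 143, LAMTOR3 0.14, from 158 and 161 to 157 and 160, and ATP6V1C2 0.11, from 171 and 167 to 184 and 179.

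No member rose over the 14 days, where 0.0574% of all genes rose in N87 and no gene did in OE19. At an unadjusted p under 0.05, 2 members rose in N87, both restricted isoforms, against 5.11% of genes, and 0 rose in OE19, against 4.99%. The same rule gave 12 members with a fall in N87, against 7.07% of genes, and 13 in OE19, against 6.99%, which took in 2 accessory genes, 3 Ragulator genes and 1 Rag gene in OE19. The OE19 count depended on how sgRNAs were combined: limma on the mean of a gene's sgRNAs called 12 members, against 5.35% of genes, and edgeR on their summed counts called 10, against 5.95%. Both OE19 tools added ATP6V0B, ATP6V0D1, ATP6V1B2, ATP6V1H, ATP6AP2, LAMTOR2, LAMTOR5 and RRAGA. In OE19 limma added ATP6V1A and ATP6V1G1 as well, and neither tool called a restricted isoform. In N87 limma called no gene at all, so that all 6 calls were lost. There edgeR on summed counts called 4 members, ATP6V0B, ATP6V1B2, ATP6V1H and ATP6AP1, against 1.56% of genes. Without vehicle replicate 2 the 6 N87 calls came down to ATP6V0C, ATP6V1A and ATP6V1H. In OE19, ATP6AP1 was lost without either vehicle library. At the level of single sgRNAs, 6.37% of the member sgRNAs passed in OE19, against 0.904% of all sgRNAs tested. In N87, 1 of the 204 member sgRNAs passed, that against ATP6V1H, or 0.490%, where 0.0399% of all sgRNAs did. ATP6V0C, ATP6V0D1, ATP6V1A, ATP6V1B2 and ATP6AP1 had no sgRNA past that test in N87, so those gene calls rest on sgRNA ranks.

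Whether the lines differed was tested by the interaction of line and condition. No member passed, where 0.191% of genes fell more in OE19 and 0.0383% fell less. The largest differences were 0.44 ± 0.59 for ATP6V1E1 and 0.36 ± 0.60 for ATP6V1F on the higher side and -0.36 ± 0.48 for RRAGA on the lower. ATP6V1E1 went from 123 and 111 to 97.3 and 90.1 in N87 and from 101 and 109 to 129 and 157 in OE19, without overlap in either. Its sgRNAs did not share the OE19 rise of these medians, with a median change of 0.07 ± 0.78. In OE19, 2 of them had both vehicle libraries below both baseline libraries and 1 had both above. ATP6V1F went from 126 and 102 to 104 and 85.5 in N87 and from 121 and 144 to 145 and 106 in OE19, with overlap in both. ATP6V0A4, a kidney isoform, gave -0.30 ± 0.24, from 108 and 113 to 91.4 and 93.6 in OE19. The lowest adjusted p of a member was 0.13, for ATP6V1H. At an unadjusted p, 4 members were lower and 4 higher in OE19, against 5.39% and 5.2% of genes. The different OE19 calls above are therefore not shown to differ from those in N87.

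The lines started from slightly different pools. At baseline ATP6V0C sgRNAs were higher in OE19 than in N87, by 0.31 ± 0.27 on the log2 scale with an adjusted p of 0.040, and 1.78% of all genes were higher. The 4 baseline values were the 86.4 and 68.4 in N87 and 100.5 and 121 in OE19 given above, which do not overlap. ATP6V0E1 was next, with 144 and 150 in N87 and 143 and 174 in OE19, overlapping groups, a median difference of 0.36 ± 0.34 and an adjusted p of 0.071. ATP6V1B2 gave 0.23 ± 0.17 between 234 and 249 in N87 and 277 and 283 in OE19, without overlap, and an adjusted p of 0.567. No member was lower, and at an unadjusted p 1 was, against 5.17% of genes. The lowest differences were -0.12 for LAMTOR4, -0.11 for ATP6V0A4 and -0.08 for ATP6V0E2. The ATP6V0C call was lost without N87 baseline replicate 2 (adjusted p 0.99) and without OE19 baseline replicate 2 (adjusted p 0.70). Both baselines followed puromycin selection, and no count of the library before infection was used, so changes before that point are not in these values.

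The wider lysosomal mTORC1 pathway was followed with 13 other genes, among them mTOR itself, its partners and the GATOR and folliculin complexes. In N87, 3 of them fell: MTOR, the kinase, by -0.66 ± 0.47 with an adjusted p of 0.018, MLST8, its constant partner, by -0.80 ± 0.65 with an adjusted p of 0.00023, and SEH1L, a GATOR2 subunit shared with the nuclear pore, by -0.76 ± 0.73 with an adjusted p of 0.042. In OE19, FLCN, which acts on RRAGC and RRAGD, fell by -0.68 ± 0.68 with an adjusted p of 0.0076, and the line difference for FLCN also passed (-0.62 ± 0.73, adjusted p 0.0038). MTOR was higher in the OE19 baseline than in that of N87 by 0.44 ± 0.23, with an adjusted p of 0.016. Over the 13 genes the median change was -0.41 in both lines, lower than the Ragulator medians of -0.17 and -0.29. The 7 pump assembly factors, 8 BORC genes, 8 HOPS and CORVET genes and 4 lysosomal transcription factors had no call in any of the 9 comparisons.

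The second question was whether loss of these genes changed how cells fared under lapatinib. No member passed the gene test in N87, where 0.0144% of genes fell and none rose, or in OE19, where 0.0957% rose and none fell. At an unadjusted p, 2 members fell and 1 rose in N87, against 5.18% and 5.08% of genes, and 2 fell and 2 rose in OE19, against 5.37% and 5.47%. These shares are near the background. In N87 the sgRNAs of a gene spread far apart: the median SD over sgRNAs was 1.49 over the members and 1.29 over all genes, while in OE19 it was 0.55 and 0.50.

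In N87 most sgRNAs of any kind moved under the drug. Of the 200 member sgRNAs tested, 63.0% passed in one direction or the other, against 61.1% of all sgRNAs and 52.3% of the control guides, which target no gene. Both lapatinib libraries lay below both vehicle libraries for 95 of 204 member sgRNAs and above them for 74, or 46.6% and 36.3%, against 43.0% and 41.6% of all. In OE19 the member counts were 47 and 45 of 204, or 23.0% and 22.1%, against 23.9% in each direction over all sgRNAs. Of OE19 member sgRNAs 1.99% passed, against 2.41% of all.

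**Figure D3:**
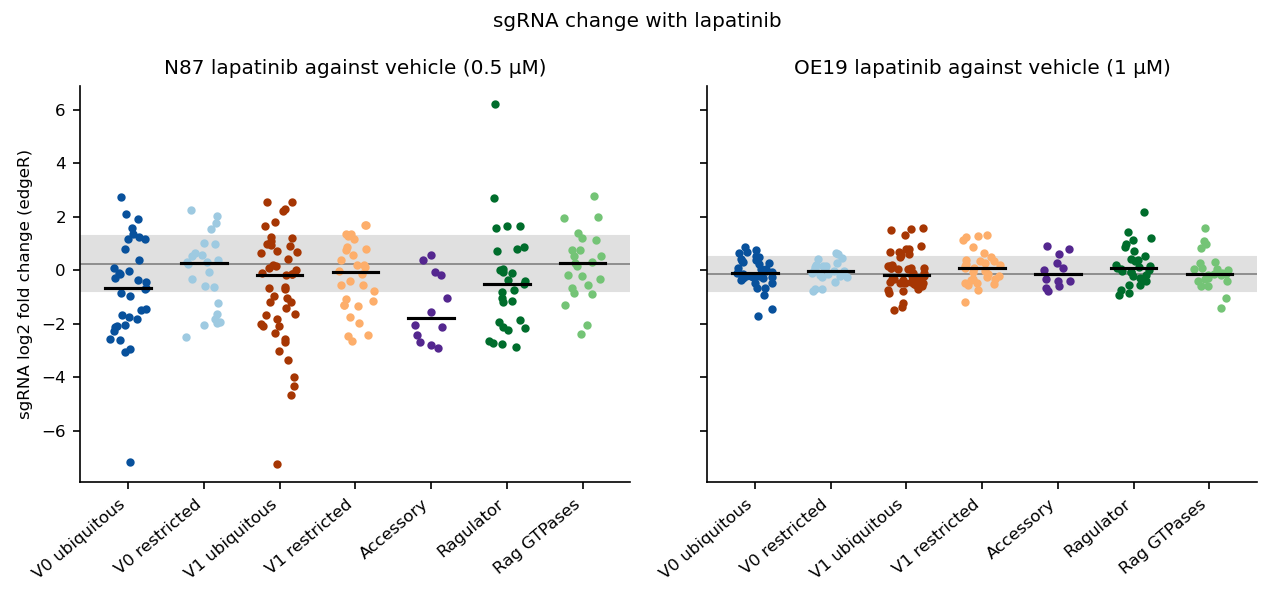
Change of every tested member sgRNA with lapatinib in N87 (left) and OE19 (right), by group of genes. The y axis is edgeR's log2 fold change of lapatinib against vehicle, dots are sgRNAs, black bars are medians over the sgRNAs of a group, and the grey line and band are the median ± SD of the control guides. The N87 sgRNAs of every group spread to both sides of 0, more widely than those of OE19. The lowest N87 dots of the V0 and V1 ubiquitous groups, at -7.14 and -7.23, are sgRNAs at 0 in both lapatinib libraries, whose fitted values are not bounds.

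ATP6V0C had the lowest median of the set in N87, at -2.58 ± 2.88. Its median normalized count was 6.19 and 7.81 with lapatinib, below the 56.4 and 25.03 with vehicle, and 5 of 6 sgRNAs lay below vehicle in both libraries. The sixth rose, from 128 and 78 counts with vehicle to 326 and 202 with lapatinib. Another, HGLibA_03716, had 28 and 14 counts with vehicle and 0 in both lapatinib libraries, at least 4.55-fold lower with a floor of 3 counts per library. In OE19 the ATP6V0C medians were 45.2 and 58.96 with lapatinib, above the 38.7 and 35.7 with vehicle. The median change was 0.43 ± 0.93 over the 5 sgRNAs tested. There 2 of its sgRNAs had both lapatinib libraries above both vehicle libraries, and 1 had both below. Neither comparison passed the test.

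ATP6V1G1, an outer stalk gene, followed in N87 with -2.07 ± 3.53, a spread wider than that of 99.9% of genes. Its gene medians overlapped, 79.9 and 59.7 with vehicle against 86.0 and 75.1 with lapatinib, since 3 sgRNAs fell and the others did not. HGLibB_03755 went from 35 and 10 counts to 0 and 0, at least 4.84-fold lower, HGLibA_03758 from 90 and 64 to 0 and 5, and HGLibB_03756 from 61 and 59 to 0 and 5. HGLibB_03754 rose from 117 and 79 counts to 330 and 329. In OE19 no sgRNA of this gene separated lapatinib from vehicle in either direction.

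ATP6AP1 had the third lowest N87 median, -1.98 ± 1.10, and its medians of 134 and 123.5 with vehicle became 17.9 and 39.6 with lapatinib, with 5 of 6 sgRNAs lower in both libraries and none higher. Its adjusted p was 0.95. In OE19 it gave -0.18 ± 0.61 between 105 and 123 with vehicle and 81.4 and 88.4 with lapatinib.

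At the other end ATP6V0E1 had the highest N87 median, 1.47 ± 0.90. It stood at 119 and 128.5 with vehicle and at 278 and 262.5 with lapatinib, all 6 of its sgRNAs had both lapatinib libraries above both vehicle libraries, and 5 of 6 passed the sgRNA test. The gene did not pass, with an adjusted p of 1 to the precision given, and 1.40% of all genes had 5 or more sgRNAs called higher. In OE19 it did not separate, with 199 and 168 against 169 and 164. ATP6V1G3, a kidney isoform, gave 0.98 ± 1.41 in N87, from 165 and 146 to 352 and 281, and RRAGC gave 0.83 ± 1.82, from 108 and 111 to 307 and 213.

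The single largest rise belonged to 1 sgRNA against LAMTOR4. HGLibA_34285 had 74 and 63 counts in the N87 vehicle libraries and 4148 and 2787 with lapatinib, a 75.9-fold rise, and 0.00648% of all sgRNAs rose more. Its baseline counts were 79 and 79. The other 5 LAMTOR4 sgRNAs did not share this rise, with folds from 0.16 to 1.71, and the OE19 counts of this sgRNA were 64 and 24 in vehicle libraries against 12 and 43 in lapatinib libraries. LAMTOR4 as a gene had an N87 median of -0.09 ± 3.02.

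The next 4 rises in N87 were each against a different gene, and all passed the sgRNA test. HGLibB_43171 against RRAGA rose 7.11-fold, HGLibA_03723 against ATP6V0E1 6.91-fold, HGLibA_34278 against LAMTOR1 6.74-fold and HGLibB_03742 against ATP6V1D 6.08-fold. The N87 gene medians were -0.43 ± 1.61 for RRAGA, 1.47 ± 0.90 for ATP6V0E1, -0.73 ± 1.84 for LAMTOR1 and 0.40 ± 1.52 for ATP6V1D. RRAGA and LAMTOR1 each had 1 sgRNA with both lapatinib libraries above both vehicle libraries. They had 3 and 4 sgRNAs with both below. HGLibB_03764 against ATP6V1H was among the lowest, from 40 and 41 counts with vehicle to 0 and 2. In OE19 the range was narrower. The highest was HGLibA_34277 against LAMTOR1 at 4.54-fold, from 88 and 83 counts to 188 and 157, and HGLibB_43172 against RRAGA at 3.10-fold followed, both past the sgRNA test. The lowest was HGLibB_03701 against ATP6V0A1, from 47 and 40 counts to 7 and 5, or 2.95-fold lower, which did not pass.

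The OE19 gene medians under lapatinib ran from -0.56 ± 0.36 for LAMTOR3 to 0.55 ± 0.94 for LAMTOR1. LAMTOR3 stood at 157 and 160 with vehicle and at 101 and 96.2 with lapatinib, without overlap, and its adjusted p was 0.78. LAMTOR1 stood at 141 and 158 with vehicle and at 220 and 200 with lapatinib, also without overlap, and its adjusted p was 0.90. These members of 1 complex thus lay at opposite ends of the set, neither past the test. ATP6V1E1 gave -0.47 ± 0.83, with 129 and 157 against 152 and 123, overlapping groups. ATP6V1A gave -0.42 ± 0.87, from 115 and 124 to 89.1 and 91.6, and LAMTOR4 gave 0.38 ± 0.56, from 82.2 and 96.5 to 142 and 103, both without overlap.

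Testing whole genes by other tools gave many more N87 calls, among the members and among all genes. By limma on gene means 12 members were lower and 5 higher, against 27.4% and 21.2% of all genes. By edgeR on summed counts 15 were lower and 10 higher, against 32.2% and 32.3%. The difference of the drug response between the lines passed for no member, and 0.0191% of genes were higher in OE19. At an unadjusted p, 2 members were lower and 1 higher, against 5.14% and 5.19%. The largest differences were 3.29 ± 2.24 for ATP6V0C on the higher side and -1.81 ± 0.76 for ATP6V0E1 on the lower. ATP6V0D1 gave 2.07 ± 1.62, with lapatinib medians of 26.0 and 43.8 in N87 and 69.8 and 97.0 in OE19. RRAGC gave -1.11 ± 1.61, and its OE19 lapatinib medians were 84.0 and 85.3. The lapatinib concentration differed between the lines, so a difference of the lines and a difference of dose cannot be told apart.

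**Figure D4:**
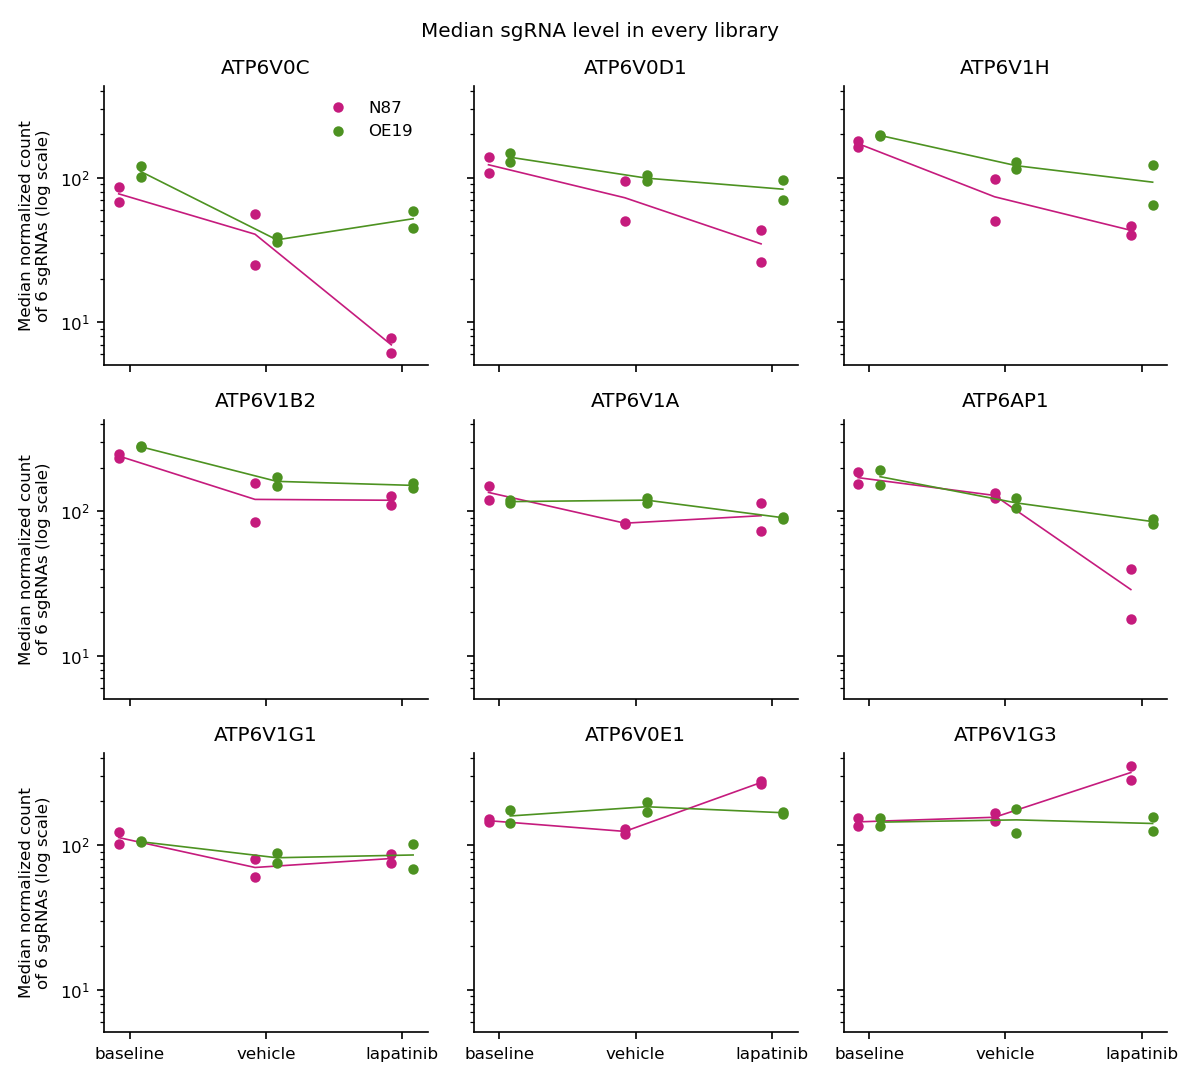
Median normalized count over 6 sgRNAs of 9 member genes at baseline, with vehicle and with lapatinib, on a log scale. Each dot is 1 library, lines join the means of 2 libraries, N87 is pink and OE19 green. ATP6V0C in N87 goes from 86.4 and 68.4 to 6.19 and 7.81, while ATP6V0E1 and ATP6V1G3 in N87 end above their baseline.

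Lapatinib cells were last set against baseline, which joins 14 days of growth to the drug and shares the baseline libraries with the first comparison. No member passed in N87, where 0.134% of genes fell, or in OE19, where 0.129% did. ATP6V0C was lowest in both lines, with -3.77 ± 3.15 in N87 and -1.12 ± 0.88 in OE19, and adjusted p-values of 0.25 and 0.23. ATP6AP1 gave -2.32 ± 1.49 and -0.62 ± 0.93, with adjusted p-values of 0.14 and 0.10. At an unadjusted p, 11 members fell and 1 rose in N87, against 5.23% and 5.13% of genes. In OE19, 14 fell and 0 rose, against 5.69% and 5.35%. RRAGA was second lowest in OE19 at -0.69 ± 0.72, with medians of 113.6 and 113.9 at baseline and 49.1 and 113.3 with lapatinib. Lapatinib replicate 1 lay well below baseline, and replicate 2 hardly below it. In OE19 all 14 ubiquitous subunits had medians below 0, from -1.12 to -0.04, and 7 were in the lowest 5 percent of genes. Without OE19 baseline replicate 1, ATP6V0C and ATP6AP1 passed in OE19, and without lapatinib replicate 2 ATP6V0C did.

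Levels of whole groups showed where the pools stood in each condition. Over the sgRNAs of the 6 ubiquitous V0 genes, the median log2 normalized count relative to that of all sgRNAs with a gene target in the same library was -0.37 ± 0.14 in N87 at baseline (SD, n = 2), -0.80 ± 0.28 with vehicle and -1.17 ± 0.49 with lapatinib. In OE19 it was -0.11 ± 0.11, -0.59 ± 0.22 and -0.70 ± 0.06. The ubiquitous V1 genes stood at -0.12 ± 0.03, -0.66 ± 0.30 and -0.68 ± 0.23 in N87 and at -0.14 ± 0.07, -0.31 ± 0.17 and -0.44 ± 0.01 in OE19. For both sectors the baseline and vehicle libraries did not overlap in either line. For V1 in OE19 they hardly parted, with -0.191 in baseline replicate 1 and -0.193 in vehicle replicate 2. The vehicle and lapatinib libraries overlapped in N87 and in OE19 for V0.

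The restricted isoforms stayed on the other side of 0 through the first 2 conditions. Restricted V1 genes stood at 0.18 ± 0.03 in N87 at baseline and 0.22 ± 0.06 with vehicle, and at 0.19 ± 0.04 and 0.16 ± 0.14 in OE19. Ragulator went from -0.03 ± 0.24 to -0.33 ± 0.03 with vehicle and -0.81 ± 0.23 with lapatinib in N87, but from 0.08 ± 0.09 to -0.29 ± 0.17 and back to -0.05 ± 0.03 in OE19. The Rag genes went from -0.05 ± 0.05 at baseline to 0.72 ± 0.33 with lapatinib in N87 and to -0.30 ± 0.21 in OE19. The N87 rise was not shared by RRAGA. Its median change from baseline to lapatinib was -0.95, against 0.33 for RRAGB, 0.60 for RRAGC and 0.58 for RRAGD. Control guides themselves moved, to 0.48 ± 0.09 with lapatinib in N87 and 0.21 ± 0.04 with vehicle in OE19, and the part of this shift in the group levels was not tested. These levels are descriptions with no test, and 2 libraries against 2 cannot reach an exact permutation p below 0.333.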

How the data were processed

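The deposited table holds raw sgRNA counts, whole numbers for 12 libraries. The authors made them by trimming, FastQC control and Bowtie alignment to the library, with fewer than 2 mismatches allowed (the submitters' processing notes name FastQC 0.11.5, Bowtie2 2.3.2 and MAGeCK 0.5.6). Tests used DESeq2 1.42.0, limma 3.58.1 and edgeR 4.0.16 in R 4.3.3. Other steps used scipy 1.17.1, pandas 2.3.3, numpy 2.4.6 and matplotlib 3.10.9 in Python 3.11.15. Total counts were 13105805 to 33743599 per library, and the number of libraries limits the precision.

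sgRNAs with at least 40 counts over the 4 libraries of a comparison (80 over 8 for the differences between lines) were tested by edgeR's quasi-likelihood test with TMM factors. Their one-sided p-values were turned into ranks, and robust rank aggregation over ranks below 0.05 gave 1 p per gene and direction for genes that kept 2 or more sgRNAs. p-values were Benjamini-Hochberg adjusted over all genes. Gene changes are medians of the edgeR log2 values over a gene's sgRNAs, given ± their SD. Folds of single sgRNAs carry a pseudocount of 1. The scripts were tested on simulated data.

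Every member could be named. Library values were given for members past the gene test and for the 3 lowest and 3 highest medians of a comparison, and sgRNAs among the 5 largest or 5 smallest folds of a line. Genes outside the set were named where they passed. Library values of LAMTOR2 and counts of 1 further sgRNA each of ATP6V0C, ATP6V1F and ATP6V1G1 were added after their values were seen. With 2 infection replicates a condition, the sgRNA p-values rest on the spread between infections. The gene p-values measure how far the sgRNAs of a gene rank together towards 1 end of all sgRNAs. The members and the lists were chosen with earlier results of these data known. Other settings tried were median-of-ratios factors, total counts, control guides as scale, no count filter and a filter of 200, DESeq2, a replicate block, ranks below 0.25, limma on gene means, edgeR on summed counts and each library left out. The labels number the replicates but do not tie a number to 1 infection across conditions, so no pairing was assumed. Coordinates are from GENCODE on GRCh37.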

Additional observations from a re-analysis of the deposited data

How the results depend on the processing

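Counts of members called are given with those under other settings. For N87 vehicle against baseline, 6 members fell, 0 by limma on gene means, 4 by summed counts (1.56% of genes) and 3 to 6 with 1 library left out. For OE19 vehicle against baseline, 2 fell, 12 by limma, 10 by summed counts and 1 to 3 with 1 library left out. For N87 lapatinib against vehicle, 0 fell, 12 by limma and 15 by summed counts, and 0 rose, 5 by limma and 10 by summed counts. For OE19 lapatinib against vehicle, 0 rose and 1 did by limma (LAMTOR1), against 7.26% of genes. For N87 lapatinib against baseline, 0 fell, 19 by limma and 19 by summed counts, against 30.4% and 35.6% of genes, and 0 to 1 with 1 library left out (ATP6AP1 without lapatinib replicate 1). There 0 rose, 6 by limma and 12 by summed counts, against 23.5% and 35.1%. For OE19 lapatinib against baseline, 0 fell, 5 by limma, against 0.842% of genes, and 0 to 2 with 1 library left out (ATP6V0C and ATP6AP1). For the baselines of the lines, 1 was higher in OE19. There were 2 with ranks below 0.25 and 2 by summed counts, against 2.16% and 3.4% of genes. For the line difference in growth, 0 were higher, and 0 to 1 with 1 library left out (ATP6V1H without N87 vehicle replicate 1). For the line difference under lapatinib, 0 were lower, 6 by limma and 8 by summed counts, against 14.5% and 19.8% of genes. There 0 were higher, and 11 by each of these tools, against 19.5% and 24.9%.

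The replicate block called 1 member, ATP6V0C, lower in OE19 lapatinib against baseline, against 0.187% of genes. It called 1 member, ATP6V1H, higher in the line difference in growth, against 0.0479% of genes. It changed no other count of members. Differences between replicates 1 and 2 correlated between conditions at 0.0323 to 0.238 across all sgRNAs and at 0.0287 to 0.283 across member sgRNAs. These values were all positive, highest for N87 baseline and vehicle, and do not settle whether a number marks 1 infection. The numbers were not taken to pair the libraries because the labels do not say so.

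In N87 growth, ATP6V0C, ATP6V0D1 and ATP6V1A also missed the threshold by summed counts (adjusted p of 0.059, 0.079 and 0.065), and ATP6V1A did at 200 counts and without baseline replicate 2 or vehicle replicate 1. ATP6V0C, higher at baseline in OE19, missed it by limma (0.058). No gene past the test changed direction under any setting tried. Median-of-ratios factors, total counts, control guides as scale, no count filter and DESeq2 gave the same number of members in all 9 comparisons. Counts below 10 limit the lapatinib libraries most.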
